A study of Mus musculus with 24 samples.

Results

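SLIM-seq of late 2-cell (L2C) mouse embryos compared RNA captured by an antibody against N6-methyladenosine (m6A) with input RNA that had not met the antibody. The libraries described here were chosen by their sample labels and are 6 of the 24 of the study, 3 m6A immunoprecipitates (IP) and 3 inputs, all from B6D2F1 embryos collected after zygotic genome activation. The labels give no treatment or genetic change for any of the 6, and the embryos came from superovulated B6D2F1 females mated with B6D2F1 males. The other 12 SLIM-seq libraries are 3 IPs and 3 inputs each from MII oocytes and from late 1-cell (L1C) embryos of B6D2F1 mice. A Ctrl group of 3 further libraries, from L2C embryos that had received Cas13d mRNA with no guide RNA, gave the level of each mRNA in separate embryos. For each IP total RNA was incubated with antibody bound to beads, and the captured RNA was eluted by heat and made into a library. The labels name the SMART-Seq Stranded Kit and polyA RNA, whereas the methods of the study describe a customized Smart-seq2 protocol. Each library holds the RNA of a pool of embryos, and whether the 3 replicates came from separate pools is not given, so P values measure the spread between these libraries.

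The modification m6A is the most common internal mark of eukaryotic mRNA. It is added in the nucleus by a methyltransferase complex around Mettl3 and Mettl14, removed by Fto and Alkbh5, and bound by reader proteins of the YTH family that affect splicing, export, translation and decay. In the mouse, the 2-cell stage is the stage of major zygotic genome activation (ZGA), when RNAs of the egg are cleared and the embryo transcribes its own genome, so an L2C library holds both maternal and zygotic RNA. SLIM-seq reports how strongly a whole gene is captured relative to its own input and gives neither the position of the mark nor the fraction of molecules that carry it.

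The methyltransferase complex favours adenosines in sequences such as GGACT. The coding sequence around the last GGACT that lies far enough from the ends of a coding exon is shown for 3 mRNAs per direction. They were taken from the top of the ranking by P value, and mRNAs without such a GGACT were passed over. All mRNAs shown therefore carry the motif by choice. Capitals mark GGACT, bases run 5′ to 3′ on the transcribed strand, and positions refer to GRCm38 with the transcripts of GENCODE M21.
Jak2: aaataattgcatGGACTatgagccagatt
Atp2a2: ccatgggctcagGGACTgcagtggctaag
Cdr2: agggacctgacaGGACTggtcacgcagtc
Carmil1: gaagaaaaaacgGGACTctcggaggagtg
Sh3bp2: cactggcgaggaGGACTcagatgaagact
Pard3: ccaagatggaggGGACTgtgagccttctg

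The first 3 mRNAs were higher in the IP and the last 3 lower. The windows lie at chr19:29298656-29298684 on the plus strand in coding exon 16 of 23 of *Jak2*, at chr5:122460113-122460141 on the minus strand in coding exon 15 of 20 of *Atp2a2*, and at chr7:120958117-120958145 on the minus strand in the last of 5 coding exons of *Cdr2*. Those of the lower mRNAs lie at chr13:24036529-24036557 on the minus strand in coding exon 34 of 38 of *Carmil1*, at chr5:34560416-34560444 on the plus strand in coding exon 9 of 13 of *Sh3bp2*, and at chr8:127378247-127378275 on the plus strand in coding exon 11 of 25 of *Pard3*. GGACT occurred 4 times in the coding exons of *Jak2*, 1 time in *Atp2a2* and 2 times in *Cdr2*, against 4 times in *Carmil1*, 2 times in *Sh3bp2* and 2 times in *Pard3*. The motif was searched on the transcribed strand, since m6A is a mark of RNA. It was held by an exon of 15165 of the 16118 mRNAs tested and by 2.91% of all windows of 29 bases in the coding exons of 16039 of them. None of these windows is a measured m6A site.

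Total estimated counts were 19962783 to 38195381 in the inputs and 11107421 to 39739950 in the IPs. IP 2 was the shallowest library, and replicates differed by more than counting error, with a chi-square per degree of freedom of 11.9 to 24.6 between inputs and 8.63 to 37.1 between IPs. Pairs that include input 2 or IP 2 had the larger values. The stage label was compared with marker genes. All 13 matched of 15 listed 2-cell transcripts had more than 1 count in each of the 6 libraries, and they summed to 934.8 to 1174 CPM (counts scaled to the size of the library) in the inputs and to 1201 to 1377 in the IPs. Transcripts of the oocyte and early embryo (12 of 12) summed to 1132 to 1162 and 1370 to 1480 CPM, those of morulae and blastocysts (6 of 6) to 4.11 to 5.14 and 4.79 to 6.02. Among transcripts of other cells, those of cumulus and granulosa cells summed to 7.76 to 8.63 CPM in the inputs and 11.8 to 13.0 in the IPs, with 7 of 12 above 1 count in all 6 libraries and *Foxl2* at or under 1 count in each. Those of sperm summed to 57.5 to 77.6 and 83.0 to 107.5 CPM, nearly all of it from 1 of the 5, *Prm1*, the single one above 1 count in all 6 libraries, whereas *Tnp1* was at or under 1 count in each. Scaled to library size, the sums of all 5 lists but that of morulae and blastocysts were higher in every IP than in every input. The scaling of the tests below was not applied to these sums. Its factors were 1.07 to 1.12 for the inputs and 1.28 to 1.34 for the IPs, which would lower the IPs more. The part of other cells in the results was not tested.

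Enrichment was tested per gene in edgeR by quasi-likelihood, with libraries scaled by trimmed mean of M values (TMM), and a gene was called at a Benjamini-Hochberg (BH)-adjusted p under 0.05. A log2 IP/input above 0 means that a gene took a larger share of the IP than of the input, relative to a middle set of genes that TMM sets near 0. At L2C 3473 of 16118 mRNAs (21.5%) were higher in the IP and 4293 (26.6%) were lower. The median log2 IP/input of all mRNAs was -0.01. With scaling to library size alone the median was 0.24, and 5334 mRNAs were higher and 3106 lower, so that higher mRNAs were 63.2% of those called in place of 44.7%. Each value below is relative to the TMM scale. Reads in introns count toward a gene, because the targets of the counting are whole gene spans.

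Leading mRNAs were taken by P value among those whose IPs and inputs did not overlap, so that their separation follows from the choice, first those higher in the IP. *Jak2* (chromosome 19, 29251828 to 29313080), a tyrosine kinase of cytokine receptors, had 32.9, 31.9 and 33.1 CPM in the 3 inputs and 144, 129.9 and 149.99 in the 3 IPs (edgeR log2 IP/input 2.11, SE 0.13, BH-adjusted p = 1.4e-09). *Slain1* (chromosome 14, 103650228 to 103704907), which promotes growth of microtubule plus ends, had 25.5, 26.6 and 21.8 CPM in the inputs and 98.04, 98.9 and 106 in the IPs (edgeR log2 IP/input 2.04, SE 0.14, BH-adjusted p = 2.7e-09). *Cdr2* (chromosome 7, 120957036 to 120982312), an antigen of cerebellar degeneration, had 19.5, 19.7 and 19.4 and 77.5, 69.5 and 78.4 CPM (edgeR log2 IP/input 1.95, SE 0.13, BH-adjusted p = 2.4e-09). For these 3 mRNAs the lowest IP exceeded the highest input, and the inputs lay close together. *Atp2a2* (chromosome 5, 122453513 to 122502225), the calcium pump of the endoplasmic reticulum, rose from 25.6, 24.9 and 21.98 CPM in the inputs to 73.98, 79.6 and 77.98 in the IPs. *Slc30a1* (chromosome 1, 191906767 to 191913247), a zinc exporter, rose from 8.44, 8.39 and 9.93 to 38.8, 33.04 and 35.3 CPM. *Rac1* (chromosome 5, 143503634 to 143528036), a small GTPase of the actin cytoskeleton, rose from 11.7, 11.1 and 11.6 to 32.4, 36.5 and 31.5 CPM. Groups did not overlap for any of them, and the log2 IP/input was 1.68, 2.00 and 1.54 in that order.

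The other mRNAs of the 10 highest by P value were *Herpud2* with a log2 IP/input of 1.52, *Smurf2*, a ubiquitin ligase that limits TGF-beta signalling, with 1.41, *Tmem65*, a protein of the inner mitochondrial membrane, with 2.75, and *Plekha3*, a lipid-binding protein of the Golgi, with 2.54. *Tmem65* had the largest of the 10 log2 values, with 2.68, 1.98 and 2.72 CPM in the inputs and 16.1, 17.6 and 16.4 in the IPs. All 10 had edgeR BH-adjusted p values from 1.4e-09 to 1.6e-08 and kept a log2 IP/input above 1 with offsets for GC content, which are described with the gene features.

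The mRNAs lower in the IP reached larger changes. *Carmil1* (chromosome 13, 24012344 to 24280795), a regulator of actin capping protein, had 348, 417 and 362 CPM in the inputs and 26.8, 30.6 and 29.9 in the IPs (edgeR log2 IP/input -3.69, SE 0.12, BH-adjusted p = 6.4e-13). *Sh3bp2* (chromosome 5, 34525838 to 34563641), an adaptor protein of immune signalling, had 77.01, 95.3 and 77.3 and 7.36, 7.27 and 7.23 CPM (edgeR log2 IP/input -3.51, SE 0.14, BH-adjusted p = 1.1e-11). *Chtf18* (chromosome 17, 25718926 to 25727419), part of an alternative loader of the replication clamp PCNA, had 225, 231 and 249 and 33.6, 22.3 and 30.7 CPM (edgeR log2 IP/input -3.02, SE 0.16, BH-adjusted p = 3.4e-10). The highest IP lay below the lowest input for each. *Pard3* (chromosome 8, 127063893 to 127612286), an organizer of cell polarity, fell from 463, 554 and 496 to 116, 124 and 119 CPM, and *Akap8* (chromosome 17, 32303672 to 32321238), a nuclear anchor of protein kinase A, fell from 889, 954 and 916 to 264, 229 and 261 CPM. For both genes the 3 IPs lay within a narrow range, far below the inputs.

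*Edc4*, which enhances mRNA decapping, had a log2 IP/input of -2.94, *Tspyl2*, of a family of nucleosome assembly proteins, -2.83, *Sprtn*, a protease of DNA-protein crosslinks, -2.44, *Stk36*, a kinase of the fused family, -2.37, and *Vcpip1*, a deubiquitinase, -2.14. Of the 10 lower mRNAs *Vcpip1* had the lowest exonic GC content, 39.1%, and *Chtf18* the highest, 56.8%. With GC offsets the log2 IP/input of *Vcpip1* was -2.65 and that of *Chtf18* -2.31, both still called.

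**Figure D1:**
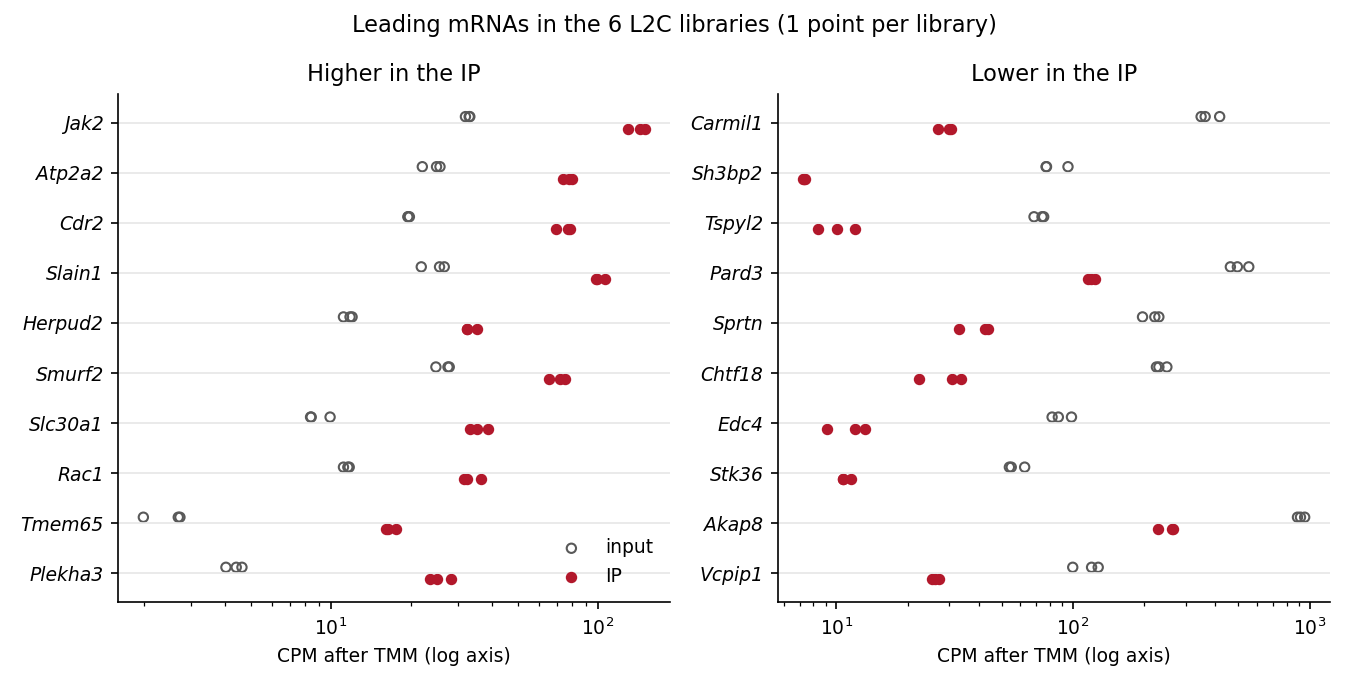
CPM after TMM scaling (log axis) in the 6 L2C libraries for the leading 10 mRNAs of either direction by P value, with open circles for the 3 inputs and filled circles for the 3 IPs. The gap between IPs and inputs in every row follows from the choice of mRNAs whose groups do not overlap. It is seen for *Jak2* with IPs from 129.9 to 149.99 and inputs from 31.9 to 33.1, and for *Carmil1* with IPs from 26.8 to 30.6 and inputs from 348 to 417.

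Functional classes were described by lists of genes, with the number of members called in each direction read against 21.5% higher and 26.6% lower over all mRNAs tested. Of the 38 lists, the highest median belonged to the mRNAs of the mitochondrial genome and the lowest to the enzymes that charge tRNAs.

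Of the 13 mRNAs of the mitochondrial genome, which encode subunits of the respiratory chain, 12 were higher in the IP and 0 lower, with a median log2 IP/input of 1.64 and medians of 1.18 to 1.85 in the 3 IPs. *mt-Nd5*, a subunit of complex I, had 159, 82.9 and 124 CPM in the inputs and 526, 456 and 560.03 in the IPs (edgeR log2 IP/input 2.08, SE 0.24, BH-adjusted p = 1.5e-06). *mt-Cytb*, cytochrome b of complex III, had 2005, 1161 and 1628 and 4107, 2838 and 3969 CPM (edgeR log2 IP/input 1.19, SE 0.22, BH-adjusted p = 0.00031). *mt-Nd6*, the single mRNA encoded on the other strand, had 22.9, 11.2 and 10.98 and 63.1, 96.2 and 71.9 CPM (edgeR log2 IP/input 2.35, SE 0.33, BH-adjusted p = 1.2e-05). Every IP exceeded every input for all 13, which held for 4400 of the 16118 mRNAs tested. The called share was 92.3% against 21.5% of all mRNAs, and input 1 held more of *mt-Nd6* than inputs 2 and 3. Together the mitochondrial mRNAs took 0.612%, 0.334% and 0.389% of the counts of the inputs and 1.73%, 1.14% and 1.69% of those of the IPs. Their median exonic GC content was 37.1%, against 49.1% for all mRNAs, and the median log2 IP/input was 1.08 with GC offsets, with 12 still higher. Near-identical copies of mitochondrial DNA in the nuclear genome can share reads with these genes.

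Nuclear-encoded subunits of oxidative phosphorylation showed 27 higher and 8 lower (4 with GC offsets) of 94, with a median of 0.24. *Ndufs4*, a subunit of complex I, was higher at 2.78, 3.202 and 3.06 CPM in the inputs and 7.65, 9.15 and 6.52 in the IPs (edgeR log2 IP/input 1.36, SE 0.16, BH-adjusted p = 1.4e-06), and *Sdha*, the flavoprotein of complex II, was lower at 35.4, 33.8 and 36.98 and 18.9, 12.9 and 18.9 CPM (edgeR log2 IP/input -1.05, SE 0.20, BH-adjusted p = 0.00026). Glycolysis had 6 lower of 16 by edgeR and 7 by DESeq2, 0 higher by either tool or at an unadjusted P value under 0.05, and a median of -0.43. *Pfkl*, the liver form of phosphofructokinase, fell from 86.3, 95.7 and 84.2 to 20.1, 15.2 and 17.4 CPM (edgeR log2 IP/input -2.33, SE 0.17, BH-adjusted p = 5.4e-09), and *Pkm*, pyruvate kinase, from 133, 200.2 and 136 to 77.1, 61.2 and 69.3 CPM (edgeR log2 IP/input -1.17, SE 0.16, BH-adjusted p = 1.2e-05). Exons of the glycolysis genes had a median GC content of 53.2%, and with GC offsets 2 were higher and 3 lower, with a median of -0.06, which turned to 0.03 with offsets for GC and intron length together.

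Classes that serve translation went different ways. Of 36 aminoacyl-tRNA synthetases, which charge tRNAs with amino acids, 24 (66.7%) were lower and 3 higher, with a median of -0.60, and 1 was higher without input 2, IP 2 or IP 3. *Aars* (chromosome 8, 111033144 to 111057664), for alanine, fell from 209.6, 266 and 224 CPM in the inputs to 49.6, 43.9 and 49.9 in the IPs (edgeR log2 IP/input -2.28, SE 0.13, BH-adjusted p = 5.9e-10), and *Tars*, for threonine, from 44.8, 45.5 and 42.1 to 14.5, 17.2 and 13.7 CPM (edgeR log2 IP/input -1.55, SE 0.11, BH-adjusted p = 4e-09). *Lars2*, the mitochondrial enzyme for leucine, was among the 3 that were higher and rose from 8.11, 8.12 and 9.24 to 32.7, 41.1 and 22.1 CPM (edgeR log2 IP/input 1.90, SE 0.17, BH-adjusted p = 9.7e-08). The 3 IPs of *Lars2* spread widely, with IP 3 the lowest, and still lay above the inputs. Exonic GC content of the synthetases had a median of 48.9%, near that of all mRNAs, and with GC offsets 20 were lower and 2 higher, with a median of -0.42.

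Factors of ribosome biogenesis had 23 lower and 8 higher (5 without IP 2) of 48, with a median of -0.31. *Rrp12*, which exports pre-ribosomes, fell from 240.3, 285 and 226 to 46.8, 41.7 and 44.6 CPM (edgeR log2 IP/input -2.50, SE 0.14, BH-adjusted p = 6.2e-10), and *Pes1*, which matures the large subunit, from 70.5, 87.5 and 76.6 to 20.7, 19.04 and 18.2 CPM (edgeR log2 IP/input -2.02, SE 0.12, BH-adjusted p = 8.3e-10). The span of *Pes1* is covered by other genes over 79.9% of its length, so part of its reads cannot be assigned to it alone. *Polr1d*, a subunit of RNA polymerases I and III, was higher, with 66.3, 84.9 and 76.8 CPM in the inputs and 153, 161 and 155 in the IPs (edgeR log2 IP/input 1.04, SE 0.12, BH-adjusted p = 1.6e-06).

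Proteins of the cytosolic ribosome had 14 higher and 2 lower of 89 and a median of 0.20, with medians of 0.11, 0.50 and -0.08 in the 3 IPs, so that the class lay highest in IP 2 and below 0 in IP 3. With GC offsets 26 were higher and 1 lower, whereas 7 were higher without IP 2, 8 without input 2, 9 without input 1 and 8 with the replicate number as a block. Ribosomal protein genes have many processed copies, which can take some of their reads. Proteins of the mitochondrial ribosome had 26 higher and 4 lower of 78, with a median of 0.19. Of 55 initiation factors 16 were higher and 12 lower, with a median of 0.11, and the counts were 9 and 9 without input 2 and 10 and 10 without IP 2. *Eif1b*, a factor of start codon selection, rose from 19.9, 18.5 and 23.2 to 46.1, 71.9 and 48.1 CPM (edgeR log2 IP/input 1.42, SE 0.15, BH-adjusted p = 7.3e-07), and *Eif4h*, a partner of the helicase eIF4A, fell from 304, 326 and 326 to 106, 77.8 and 95.9 CPM (edgeR log2 IP/input -1.77, SE 0.16, BH-adjusted p = 5.9e-08).

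Classes of proteolysis had calls in both directions. The proteasome had 15 higher and 10 lower of 48. *Psme4*, an activator of the proteasome, rose from 54.4, 36.7 and 57.1 to 169.8, 155 and 170.2 CPM (edgeR log2 IP/input 1.74, SE 0.17, BH-adjusted p = 2.6e-07), and *Psmd3*, a subunit of the regulatory lid, fell from 201, 235 and 203 to 88.3, 71.8 and 78.7 CPM (edgeR log2 IP/input -1.42, SE 0.13, BH-adjusted p = 1e-07). F-box proteins, which choose substrates of ubiquitin ligases, had 21 higher and 23 lower of 76, and ubiquitin-specific peptidases had 17 higher and 15 lower of 50, which became 13 and 20 with GC offsets. *Usp5*, which recycles free ubiquitin chains, fell from 134, 163 and 135 to 30.8, 23.8 and 28.8 CPM (edgeR log2 IP/input -2.37, SE 0.14, BH-adjusted p = 5.9e-10), and *Fbxo42* from 89.7, 102 and 95.95 to 33.4, 24.97 and 31.5 CPM (edgeR log2 IP/input -1.67, SE 0.13, BH-adjusted p = 2.1e-08). Chaperones had 12 higher and 27 lower of 73, with a median of -0.12 that turned to 0.13 with library size alone.

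Splicing factors of the SR, hnRNP, Snrp and Sf3 groups had 23 higher and 13 lower of 67 and a median of 0.22, and with GC offsets 19 were higher and 19 lower. *Hnrnpd*, a binder of AU-rich RNA, rose from 7.62, 5.59 and 7.06 to 20.6, 33.2 and 23.6 CPM (edgeR log2 IP/input 1.92, SE 0.18, BH-adjusted p = 1.4e-07), and *Srsf4*, an SR protein, fell from 458, 590.2 and 476 to 193, 122 and 147 CPM (edgeR log2 IP/input -1.72, SE 0.17, BH-adjusted p = 1.8e-07). Factors of deadenylation, decapping and decay had 12 higher and 14 lower of 40. Their median was 0.16 and turned to -0.15 with GC offsets. *Cnot6l*, a deadenylase that acts on maternal mRNA, rose from 11.5, 6.36 and 10.6 to 45.1, 44.6 and 49.5 CPM (edgeR log2 IP/input 2.28, SE 0.18, BH-adjusted p = 1.9e-08), with input 2 below the other two. *Btg4*, an adaptor of the same deadenylase complex, rose from 309, 273 and 321 to 419, 508 and 452 CPM (edgeR log2 IP/input 0.61, SE 0.10, BH-adjusted p = 7.1e-05). *Dcp1a*, a decapping activator, fell from 65.3, 69.5 and 65.1 to 29.2, 23.96 and 26.5 CPM (edgeR log2 IP/input -1.32, SE 0.11, BH-adjusted p = 2.2e-08). *Btg4* is covered by other genes over 63.3% of its span and was not called with GC offsets (log2 0.23, edgeR BH-adjusted p = 0.066).

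The proteins that write, remove and read m6A were themselves encoded by mRNAs with both signs. Of 19 measured, 3 were higher and 8 lower, with a median of -0.33, and with library size alone 5 were higher and 7 lower. *Ythdc1*, the nuclear reader, rose from 20.3, 14.7 and 18.9 CPM in the inputs to 35.8, 47.6 and 44.5 in the IPs (edgeR log2 IP/input 1.24, SE 0.17, BH-adjusted p = 8.6e-06). *Ythdf1*, a cytoplasmic reader, rose from 8.502, 7.98 and 7.57 to 18.9, 18.3 and 21.4 CPM (edgeR log2 IP/input 1.29, SE 0.15, BH-adjusted p = 2.2e-06), and *Wtap*, the regulatory subunit of the writer complex, from 701, 449.7 and 499.9 to 1292, 741 and 1192 CPM (edgeR log2 IP/input 0.97, SE 0.24, BH-adjusted p = 0.003). IP 2 of *Wtap* was close to input 1, and its SE was the largest of the 3. *Rbm15*, an RNA-binding subunit of the writer complex, fell from 185, 211 and 203 to 58.7, 64.9 and 61.5 CPM (edgeR log2 IP/input -1.69, SE 0.14, BH-adjusted p = 3.2e-08), and *Igf2bp3*, a reader that stabilizes mRNA, from 263, 271 and 279 to 78.9, 108 and 89.7 CPM (edgeR log2 IP/input -1.56, SE 0.13, BH-adjusted p = 2.1e-08).

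The 3 readers *Ythdc2*, *Ythdf2* and *Ythdf3* were lower, with log2 IP/input values of -1.08, -0.69 and -1.05 and edgeR BH-adjusted p values of 9.9e-07, 0.00015 and 7.3e-06. Their inputs held 279 to 538.9 CPM for *Ythdc2* and *Ythdf2* and 99.1 to 131.7 for *Ythdf3*. *Mettl3*, the catalytic subunit of the writer, did not pass, at 16.4, 19.1 and 15.9 CPM in the inputs and 14.3, 11.2 and 14.9 in the IPs (edgeR log2 IP/input -0.33, SE 0.15, BH-adjusted p = 0.082), nor did the eraser *Alkbh5* (edgeR log2 IP/input -0.33, SE 0.13, BH-adjusted p = 0.052). Every IP lay below every input for both genes, which held for 5266 of the 16118 mRNAs tested. Of the other writers and erasers *Mettl14* had a log2 IP/input of 0.11, *Mettl16* -0.08 and *Fto* 0.09, none of them called. With GC offsets *Mettl3* (log2 -0.46, edgeR BH-adjusted p = 0.0084) and *Mettl16* (log2 -0.32, edgeR BH-adjusted p = 0.0059) were called lower. *Ythdc1* is covered by other genes over 39.7% of its span.

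The JAK/STAT pathway carries cytokine signals from receptors through Jak kinases to Stat transcription factors and is limited by Socs proteins. It had 5 higher and 12 lower of 25, with a median of -0.42, and 3 higher without input 2, input 3 or IP 3. *Jak2* was higher, as above, and so was *Socs5*, at 4.77, 5.28 and 4.98 CPM in the inputs and 8.204, 8.28 and 9.07 in the IPs (edgeR log2 IP/input 0.77, SE 0.12, BH-adjusted p = 6.7e-05). *Socs3* (chromosome 11, 117966079 to 117970047), which inhibits Jak kinases, fell from 462, 538 and 500.2 to 47.2, 40.1 and 41.4 CPM (edgeR log2 IP/input -3.54, SE 0.20, BH-adjusted p = 5.9e-10). *Stat2*, a transcription factor of interferon responses, fell from 85.1, 105 and 91.1 to 32.3, 31.8 and 31.5 CPM (edgeR log2 IP/input -1.55, SE 0.13, BH-adjusted p = 2.4e-08). *Jak2* had the highest and *Socs3* the lowest log2 IP/input of the pathway. The exonic GC content was 59.1% for *Socs3* and 44.3% for *Jak2*, and with GC offsets their log2 IP/input was -2.78 and 1.85.

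Among classes of the nucleus and the cell cycle, replication licensing had 8 higher (5 with GC offsets) and 12 lower of 25, nucleoporins, which build the nuclear pore, 6 and 11 of 27, chromatin modifiers and remodelers 18 and 31 of 93, and zinc finger proteins named Zfp 49 and 98 of 360, with 30 higher without input 2. *Mcm2*, a subunit of the replicative helicase, fell from 230.4, 282 and 249.8 to 60.1, 43.8 and 55.01 CPM (edgeR log2 IP/input -2.26, SE 0.14, BH-adjusted p = 1.5e-09), and *Dbf4*, the activator of the kinase Cdc7, rose from 111, 93.00 and 115 to 196, 258 and 222 CPM (edgeR log2 IP/input 1.08, SE 0.14, BH-adjusted p = 4.2e-06). *Kdm1b*, a histone H3 lysine demethylase needed for maternal imprints, fell from 151, 155 and 147 to 42.04, 32.03 and 41.7 CPM (edgeR log2 IP/input -1.96, SE 0.11, BH-adjusted p = 5.9e-10). *Dnmt1*, the maintenance DNA methyltransferase, fell from 109.9, 126 and 112 to 34.9, 33.8 and 31.5 CPM (edgeR log2 IP/input -1.80, SE 0.12, BH-adjusted p = 3.1e-09). *Suz12*, a subunit of Polycomb repressive complex 2, rose from 68.8, 47.04 and 61.2 to 167, 271 and 189 CPM (edgeR log2 IP/input 1.82, SE 0.22, BH-adjusted p = 2.1e-06). Its 3 IPs spread from 167 to 271 CPM, and 30.5% of its span is covered by another gene.

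Replication-dependent histones had 10 higher and 4 lower of 43. The number higher was 4 without input 2, and 6 without input 1, input 3, IP 2 or IP 3 in turn. The number lower was 2 without IP 3. *Hist1h1b*, a linker histone, had the largest log2 value of the list, at 0.916, 0.541 and 1.64 CPM in the inputs and 12.4, 14.8 and 11.1 in the IPs (edgeR log2 IP/input 3.56, SE 0.37, BH-adjusted p = 5.1e-07). Histone genes of a cluster are similar in sequence, and reads may be split among them. Zinc finger proteins were more often lower with GC offsets, 146 against 34 higher, and their median moved from -0.09 to -0.27 and to 0.15 with library size alone.

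Of the classes of the cell surface and cytoskeleton, solute carriers had 61 higher and 98 lower of 317, Rab GTPases 14 and 15 of 58, cadherins and protocadherins 11 and 11 of 41, collagens, laminins and integrins 17 and 16 of 72, and kinesins 7 and 15 of 37. Solute carriers had 38 to 40 higher without input 1, input 3, IP 1 or IP 3 in turn, and cadherins and protocadherins 7 higher without input 2, IP 1 or IP 3 and 6 with GC and intron offsets. The median of kinesins was -0.23 and turned to 0.02 with library size alone. That of collagens, laminins and integrins was -0.16 and turned to 0.20 with GC offsets.

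Transcripts that mark the 2-cell embryo did not move as 1 class. The 5 *Zscan4* genes, a cluster transcribed at the 2-cell stage, had 0 called in either direction by edgeR or DESeq2, and 0 at an unadjusted P value under 0.05. With GC offsets 2 of the 5 were lower, with a median of -0.34, and 1 was lower in the fit of the 6 L2C libraries. *Zscan4f* had 143, 104 and 154 CPM in the inputs and 144, 144 and 150.3 in the IPs (edgeR log2 IP/input 0.13, SE 0.27, BH-adjusted p = 0.74), and the groups overlapped. The Usp17l, Tcstv, Tdpoz and Zfp352 genes of the same stage had 6 higher (3 without input 2) and 2 lower (0 without input 3 or IP 2, and 1 without input 2 or IP 3) of 13, with *Tcstv3* at 33.2, 31.8 and 38.3 CPM in the inputs and 97.9, 87.1 and 99.6 in the IPs (edgeR log2 IP/input 1.46, SE 0.17, BH-adjusted p = 1.3e-06). Obox homeobox genes had 5 higher of 7 by edgeR and 7 by DESeq2, 0 lower by either tool or unadjusted, and a median of 0.61. With GC offsets 4 were higher, and 2 with GC and intron offsets. *Obox5* was at 81.8, 65.5 and 93.8 and 143, 119.7 and 144 CPM (edgeR log2 IP/input 0.75, SE 0.16, BH-adjusted p = 0.00078). Members of these 3 groups are near-identical in sequence, so the split of reads among them is uncertain.

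Transcripts of the oocyte had 11 higher and 10 lower of 34, with a median of 0.03. *Oosp1*, a secreted protein of oocytes, rose from 76.3, 58.5 and 95.6 to 205, 278 and 226 CPM (edgeR log2 IP/input 1.62, SE 0.17, BH-adjusted p = 6.6e-07), and *Tle6*, part of the subcortical maternal complex, fell from 148, 157 and 149 to 67.5, 56.7 and 70.6 CPM (edgeR log2 IP/input -1.22, SE 0.14, BH-adjusted p = 1.4e-06). Pluripotency and early zygotic transcription factors had 2 higher and 9 lower of 22, with 1 higher without any single input or without IP 1, and with GC offsets 4 and 5. Their exons had a median GC content of 52.3%. *Tfap2c*, which directs trophectoderm genes, fell from 162, 179.6 and 166 to 67.4, 63.8 and 55.9 CPM (edgeR log2 IP/input -1.44, SE 0.15, BH-adjusted p = 3.1e-07).

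**Figure D2:**
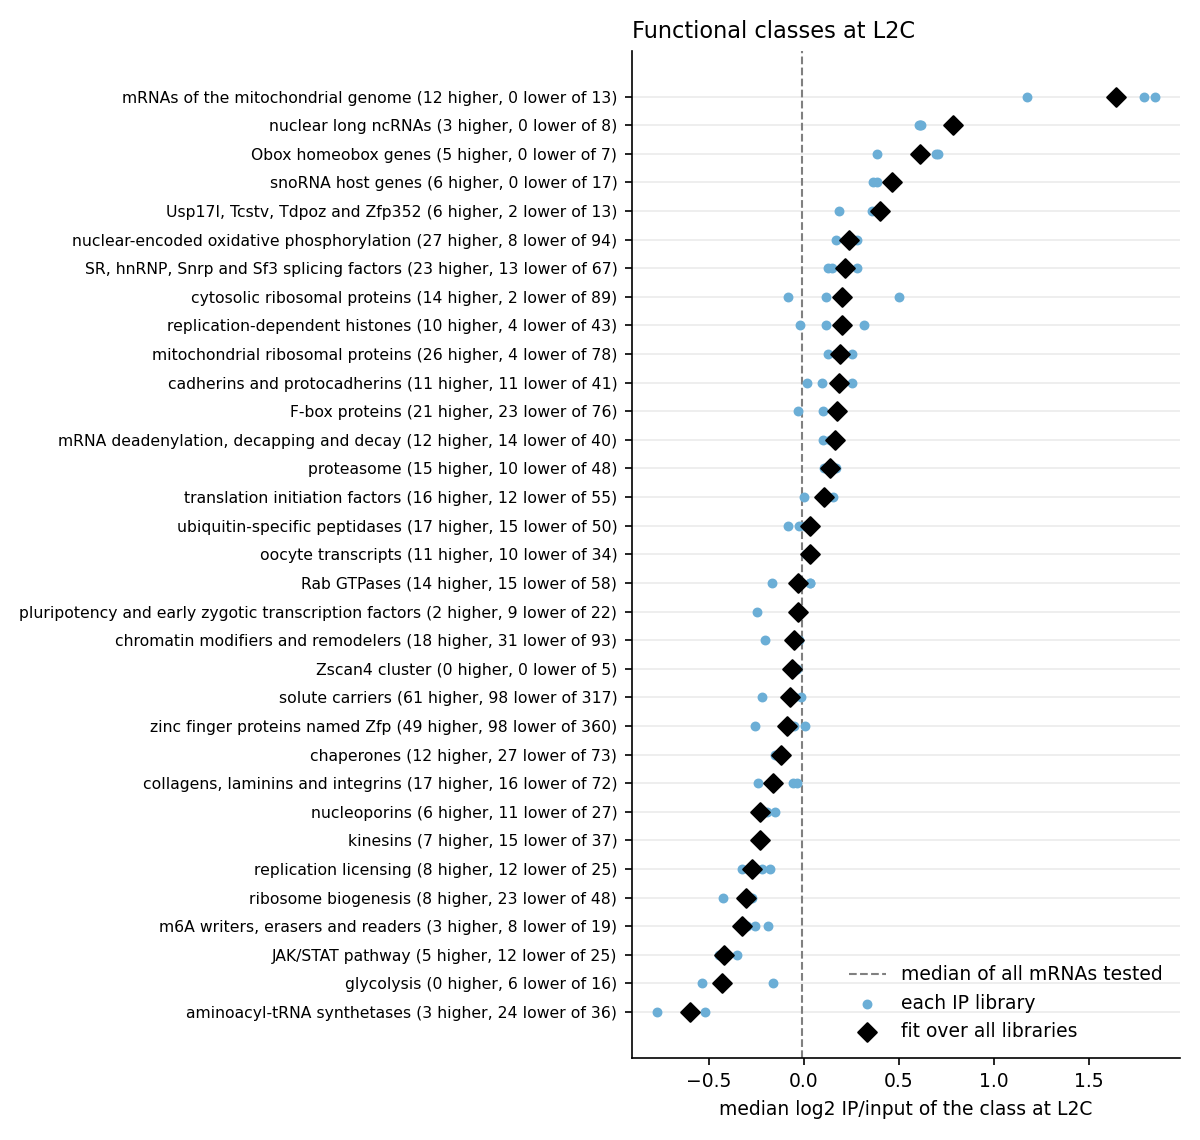
Median log2 IP/input at L2C for the lists of genes with values in the text, with diamonds for the fit over all libraries, small circles for each of the 3 IPs against the inputs, and a dashed line at the median of all mRNAs tested. Medians run from 1.64 for the mRNAs of the mitochondrial genome to -0.60 for aminoacyl-tRNA synthetases, and with scaling to library size alone the sign changes for every list shown with a median from -0.23 (kinesins) up to just below 0, among them nucleoporins, chaperones, collagens, laminins and integrins, and the Zscan4 cluster.

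RNAs that are not annotated as protein-coding (ncRNAs) had 1334 higher (23.2%) and 536 lower (9.34%) of 5739 tested, with a median log2 IP/input of 0.40. Together they took 17.2%, 16.9% and 17.3% of the counts of the inputs and 15.9%, 17.6% and 16.0% of those of the IPs. With no filter on low counts the median was 0.28. That of processed pseudogenes then went from 0.32 to 0 and that of TEC genes from 0.14 to 0.003. Long intergenic ncRNAs (lincRNAs) had 561 higher and 93 lower of 1910 and a median of 0.60. Unprocessed pseudogenes had 81 higher (52 without input 2) and 24 lower of 294, processed pseudogenes 222 and 131 of 1108, processed transcripts 88 and 38 of 437, and antisense RNAs 218 and 159 of 1168. TEC genes, whose annotation is unsettled, had 52 and 54 of 308. Many of these genes overlap others. Among the 4188 ncRNAs with at most 50% of the span covered by another gene, 1031 were higher and 298 lower, and antisense RNAs among them had 103 higher and 37 lower of 497. Counting is not stated to use the strand, so reads of an antisense RNA and its partner cannot be told apart. With GC offsets lincRNAs had 474 higher and 114 lower, with a median of 0.48.

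*Malat1* (chromosome 19, 5795690 to 5802672), an abundant lncRNA of nuclear speckles, rose from 64.9, 44.9 and 45.7 CPM in the inputs to 137, 164 and 172 in the IPs (edgeR log2 IP/input 1.60, SE 0.18, BH-adjusted p = 9.7e-07). *Snhg14*, a host of small nucleolar RNAs, rose from 3.96, 2.75 and 3.01 to 10.3, 8.55 and 9.99 CPM (edgeR log2 IP/input 1.57, SE 0.21, BH-adjusted p = 9.7e-06). Every IP lay above every input for both, which held for 1850 of the 5739 ncRNAs tested. Nuclear lncRNAs had 3 higher of 8 by edgeR and 4 by DESeq2, against 0 and 1 lower and 2 lower unadjusted, and 1 was lower by edgeR without IP 1 or with GC offsets. Host genes of snoRNAs had 6 higher of 17 by edgeR and 7 by DESeq2, with 0 lower by either tool or unadjusted. Near the top of the ranking of ncRNAs by P value were *2810408I11Rik* (edgeR log2 IP/input 1.32, SE 0.10, BH-adjusted p = 1.9e-08) and the pseudogene *Tpt1-ps3* (edgeR log2 IP/input 1.41, SE 0.13, BH-adjusted p = 1.2e-07), both higher, and *Gm7104* (edgeR log2 IP/input -2.49, SE 0.20, BH-adjusted p = 2.4e-08) and *Gm7353* (edgeR log2 IP/input -1.66, SE 0.13, BH-adjusted p = 2.3e-08), both lower. Reads of *Tpt1-ps3* may come from its parent gene.

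**Figure D3:**
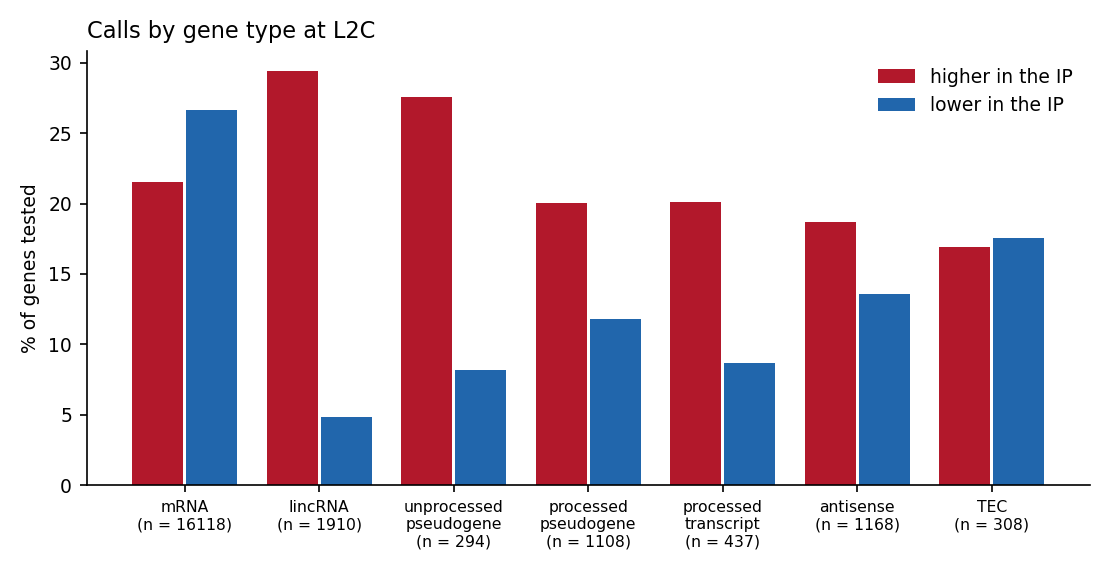
Share of tested genes of each annotated type that were higher (red) or lower (blue) in the IP at L2C by edgeR at a BH-adjusted p under 0.05, with the number tested under each type. Bars start at 0. Among lincRNAs 29.4% were higher and 4.87% lower, and among mRNAs 21.5% and 26.6%, where with library size alone higher mRNAs outnumber lower ones.

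The stage was then described by features of the genes. Exonic GC content had the strongest rank correlation with log2 IP/input of the 9 features examined other than the GC content of the gene span, which carries much of the same information. Spearman's rho over 16118 mRNAs was -0.46 for exonic GC and -0.48 for the GC of the span. It is a description across genes of the same libraries, which are not independent replicates. In the decile of mRNAs with the lowest exonic GC content (up to 41.0%), 45.2% were higher and 5.52% lower, with a median log2 IP/input of 0.58. In the decile with the highest (57.3% and above), 5.33% were higher and 43.2% lower, with a median of -0.65. The medians fell in each step from the lowest decile to the highest.

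The relation to GC was present in each IP, with rho of -0.41, -0.49 and -0.47 against the inputs. It was weaker at the other stages, with -0.21 at L1C and -0.16 at MII. The IPs of L1C had rho of -0.23, -0.29 and -0.12, and each L1C input against the other 2 had -0.58, 0.26 and 0.37. At MII the values were -0.18, -0.08 and -0.21 for the IPs and -0.01, 0.06 and -0.03 for the inputs. Inputs of L2C also differed from each other by GC. Each input against the other 2 had rho of -0.45 for input 1, 0.46 for input 2 and -0.13 for input 3, so that inputs 1 and 2 had rank correlations about as large in size as those of the IPs and input 3 a smaller one. The range of the medians was smaller in the inputs, from 0.25 in the decile of lowest GC to -0.13 in that of highest GC for input 1 and from -0.35 to 0.05 for input 2, against 0.43 to -0.33, 0.43 to -0.78 and 0.47 to -0.53 for the 3 IPs. Leaving out 1 L2C library at a time gave -0.41 to -0.48, the weakest without input 2. How much of the relation at L2C comes from the preparation of libraries was not tested.

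Total intron length had a rho of 0.18 at L2C and of -0.07 and -0.04 at L1C and MII. The 3 IPs gave 0.17, 0.16 and 0.20, and the inputs against each other 0.18, -0.15 and 0.03. The relation was not a straight line. The median log2 IP/input fell from -0.09 in the decile of mRNAs with the shortest introns (up to 1852 bp) to -0.25 in deciles 3 and 4 (4989 to 13782 bp), and was 0.33 in the decile with the longest (129496 bp and above), where 37.6% were higher and 15.8% lower. At L1C the order was the other way at the short end, with a median of 0.19 in the shortest decile and -0.05 in the longest. The 499 mRNAs without introns had 105 higher (21.04%) and 124 lower (24.9%), near the shares of all mRNAs.

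**Figure D4:**
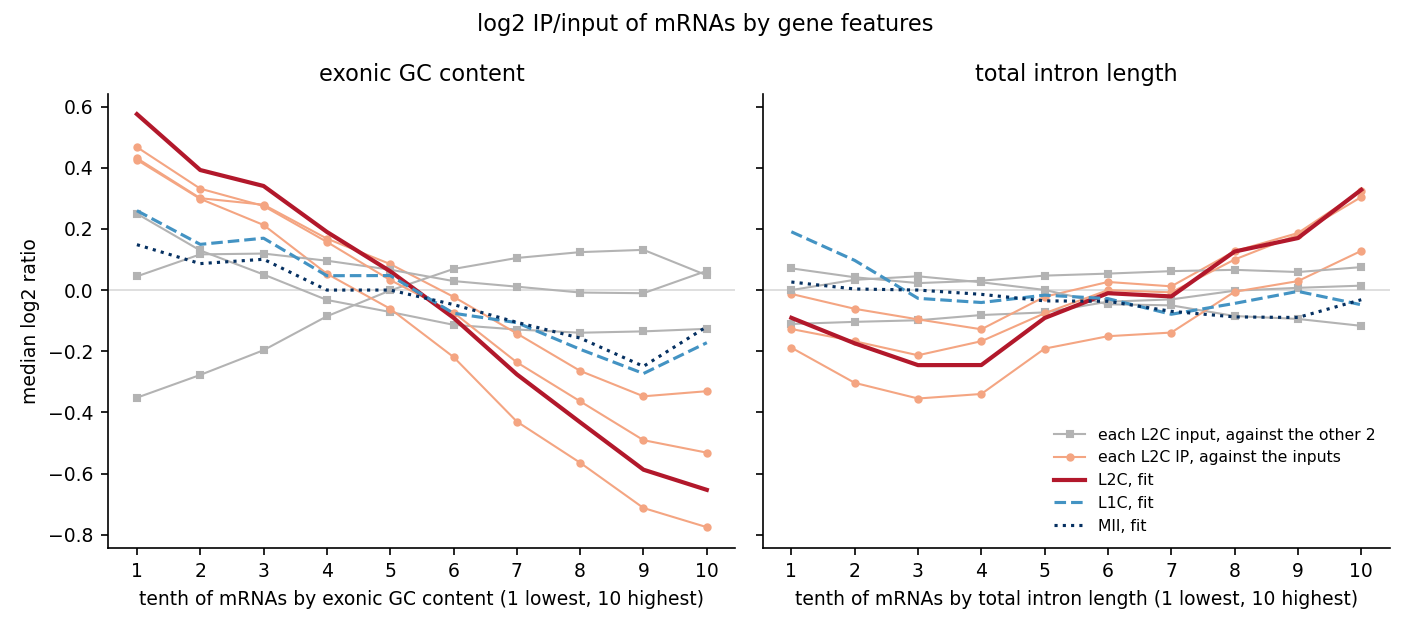
Median log2 ratio of mRNAs in deciles by exonic GC content (left) and by total intron length (right), with about 1612 mRNAs in each decile. The thick red line is the fit of IP against input at L2C, thin orange lines are each L2C IP against the inputs, grey lines each L2C input against the other inputs, and dashed and dotted lines the fits at L1C and MII. The L2C line falls from 0.58 to -0.65 with GC, and with intron length it lies at -0.09 in the shortest decile and 0.33 in the longest, while the grey line of input 2 rises with GC. Medians are on the TMM scale, and with library size alone the median of all mRNAs is 0.24 in place of -0.01.

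GC content and intron length are related to each other (rho -0.31 across mRNAs), so mRNAs were divided into tertiles by both. The cuts were 46.1% and 52.4% for exonic GC and 10289 and 37797 bp for introns. Among mRNAs of low GC, 40.3% were higher with short introns (1072 mRNAs) and 41.8% with long introns (2428 mRNAs), with medians of 0.50 and 0.44. Among mRNAs of high GC, 43.6% were lower with short introns (2712 mRNAs), 46.6% with middle (1695 mRNAs) and 35.7% with long introns (966 mRNAs), with medians of -0.58, -0.63 and -0.25. Middle introns had the smallest share of higher mRNAs where GC was low, 34.8% (1873 mRNAs, median 0.34), and long introns the smallest share of lower mRNAs where GC was high.

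**Figure D5:**
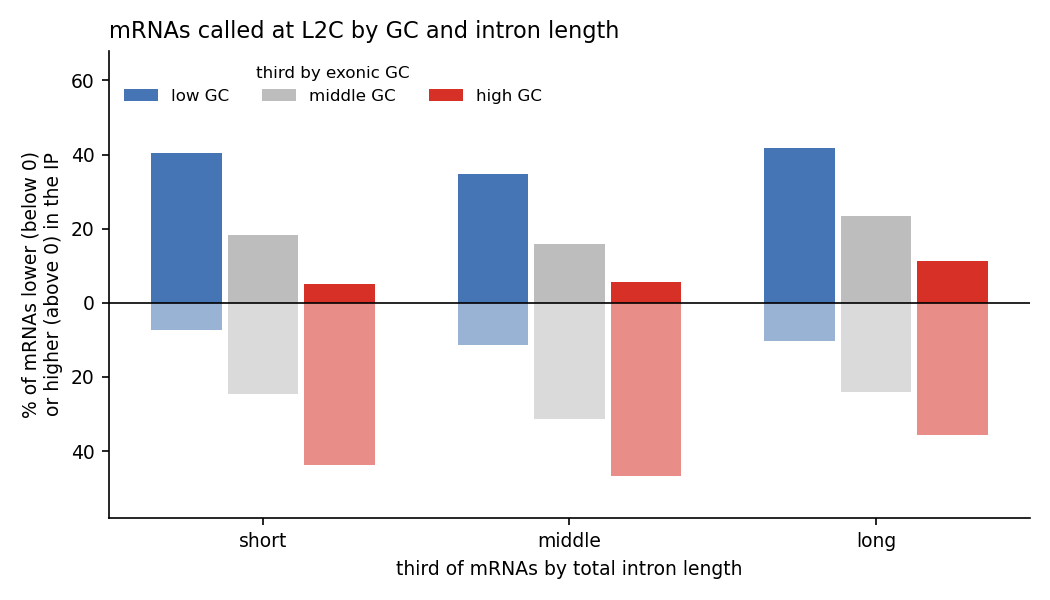
Share of mRNAs called higher in the IP at L2C (bars above 0) or lower (paler bars below 0) by tertiles of exonic GC content (blue low, grey middle, red high) and of total intron length. In each tertile of intron length the low-GC bars are mostly above 0 and the high-GC bars mostly below it, from 41.8% higher and 10.4% lower for low GC and long introns to 5.49% higher and 46.6% lower for high GC and middle introns.

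Other features had weaker relations at L2C. Coding length had a rho of -0.17 over 16052 mRNAs, weaker than at L1C (-0.31) and MII (-0.24), and in the decile of mRNAs with the shortest coding sequence (up to 522 bp) 31.3% were higher and 8.22% lower. The density of GGACT in exons had a rho of -0.15 and the exonic length one of -0.06. With GC offsets the rho of exonic length was -0.21 and that of coding length -0.21. In the decile with the fewest GGACT per kb, 29.3% were higher and 14.6% lower, and in the decile with the most, 15.3% and 29.7%. GGACT is itself a sequence of mostly G and C, and with GC offsets its rho was -0.03.

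When a smooth dependence of each library on exonic GC was removed by offsets, rho with GC was -0.02 and that with intron length 0.04. With these offsets 3644 mRNAs were higher (22.6%) and 3897 lower (24.2%), of which 2485 and 3112 were also called in the same direction without offsets. The totals thus moved less than the calls themselves. Among the classes with most calls in 1 direction, the mitochondrial mRNAs had 12 higher of 13 with and without offsets, ribosome biogenesis had 24 lower of 48 in place of 23, and aminoacyl-tRNA synthetases 20 lower of 36 in place of 24. The JAK/STAT pathway had 5 higher and 12 lower in both fits. Single mRNAs that were no longer called with GC offsets include *Btg4* and *Commd3* (log2 0.26, edgeR BH-adjusted p = 0.13).

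Enrichment was also read against the level of each mRNA in separate L2C embryos. In the 3 Ctrl libraries, with 14500548, 12917000 and 8696476 exonic counts, all 16118 mRNAs had a value. Those at 100 CPM or more (1871 mRNAs) had a median log2 IP/input of 0.25, with 40.8% higher and 18.5% lower. Those from 1 to 10 CPM (4774 mRNAs) had a median of -0.14, with 15.8% higher and 30.9% lower, and those under 0.1 CPM (2555 mRNAs) had 0.15, with 16.6% and 14.4%. The rank correlation of log2 IP/input with the Ctrl level was 0.03, and the medians of the fit were higher at both ends. Under 0.1 CPM, however, the medians of the 3 IPs were 0.11, -0.09 and 0.05. An mRNA could also pass the filter on low counts through the IPs alone. What this adds to the median of the lowest range was not tested. Within the 5 ranges of level the rho with exonic GC was -0.35 to -0.50, so the relation to GC was present at low and at high levels. The most abundant range also had the lowest median GC content, 45.4%, and with GC offsets its median was 0.12.

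Whether enrichment at L2C differed from that of the earlier stages was tested by the interaction of stage and IP in the same edgeR fit. Compared with L1C, log2 IP/input was higher at L2C for 981 mRNAs (6.09%) and lower for 874 (5.42%), and compared with MII it was higher for 2172 (13.5%) and lower for 1767 (11.0%). Which direction had more calls against MII depended on the fit, with 1590 higher and 2623 lower in a fit of the 12 libraries of the 2 stages, 2151 and 2362 with DESeq2, 1937 and 2120 with its size factors in edgeR and 1824 and 1878 with no filter on low counts. Both comparisons use the L2C libraries, so they are not independent of each other. The number of mRNAs with higher enrichment at L2C than at L1C depended on the fit, as did the number with lower, with 475 higher and 1495 lower in a fit of the 12 libraries of the 2 stages and 1159 and 1522 with DESeq2, whereas leaving out IP 3 gave 603 and 523. Leaving out input 2 or input 3 gave 574 and 580 lower.

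In ribosome biogenesis 10 of 48 mRNAs were lower at L2C than at L1C by edgeR and 15 by DESeq2, with 0 higher by either tool or unadjusted, and 17 were lower and 1 higher than at MII. The median log2 IP/input of the class was 0.00 at L1C and 0.05 at MII, and -0.31 at L2C. *Rrp12* had a log2 IP/input of 0.25 at MII, -1.73 at L1C and -2.50 at L2C (difference of L2C from MII -2.74, edgeR BH-adjusted p = 6.4e-08). Proteins of the mitochondrial ribosome had 5 of 78 lower than at L1C by edgeR and 10 by DESeq2, with 0 higher by either tool or unadjusted, and 2 higher and 14 lower than at MII. The mitochondrial mRNAs had 0 called in either direction against L1C or MII by edgeR or DESeq2, and 0 unadjusted, with medians of 1.86 at L1C and 1.74 at MII.

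The JAK/STAT pathway had 6 higher and 2 lower of 25 than at L1C and 9 and 3 than at MII. *Jak2* was at 0.29 at L1C and 0.85 at MII, and its L2C value was higher by 1.82 and 1.26 (edgeR BH-adjusted p = 8.1e-06 and 6.1e-05). *Socs3* was at -1.25 and -2.06, and differed by -2.29 from L1C (edgeR BH-adjusted p = 7.4e-05). Collagens, laminins and integrins had 9 higher and 4 lower of 72 than at L1C and 18 and 2 than at MII, and nucleoporins 5 higher of 27 than at MII, with 0 lower by edgeR, 1 by DESeq2 and 1 unadjusted. m6A regulators had 4 higher and 1 lower of 19 than at L1C, among the higher ones *Fto*, *Alkbh5* and *Ythdf3*, with log2 IP/input values at L1C of -0.82, -1.01 and -1.75 in that order.

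Among the mRNAs which the study had followed for binding by Ythdc1, *Ybx3*, an RNA-binding protein, had 3.66, 4.104 and 4.09 CPM in the inputs and 14.2, 22.2 and 17.9 in the IPs (edgeR log2 IP/input 2.18, SE 0.18, BH-adjusted p = 3.3e-08). *Camk1d* (chromosome 2, 5293457 to 5714515), a calmodulin-dependent kinase, had 185, 179.6 and 226 and 1301, 1805 and 825 CPM (edgeR log2 IP/input 2.73, SE 0.30, BH-adjusted p = 8.3e-07), and its 3 IPs differed by more than those of any other mRNA of this group. *Tceal8* had 2.39, 3.43 and 2.16 and 5.99, 10.5 and 6.95 CPM (edgeR log2 IP/input 1.55, SE 0.19, BH-adjusted p = 3.2e-06). *Commd3* had 19.4 ± 0.828 (SD, n = 3) CPM in the inputs and 32.4 ± 1.36 (SD, n = 3) in the IPs (edgeR log2 IP/input 0.74, SE 0.11, BH-adjusted p = 2.6e-05). The IPs of these 4 lay above the inputs, which held for 4400 of the 16118 mRNAs tested. *Rab3b*, a GTPase of secretory vesicles, had 8.21, 7.76 and 7.87 CPM in the inputs and 7.498, 7.07 and 7.26 in the IPs, was not called (edgeR log2 IP/input -0.12, SE 0.11, BH-adjusted p = 0.39), and its sign turned to 0.13 with library size alone. It had been 1.17 at MII, and the difference of L2C from MII was -1.29 (edgeR BH-adjusted p = 8.4e-06). The study chose these mRNAs with these libraries in view, so they are not independent evidence of a direction.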

How the data were processed

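SLIM-seq libraries (3 inputs and 3 IPs each of MII oocytes, L1C and L2C embryos) were analysed from estimated counts that the authors deposited, made with kallisto on targets spanning whole genes of GRCm38, introns included, and gathered with tximport. The TPM values that the authors deposited from the same kallisto runs were read, but no statement rests on them. For 3 Ctrl libraries, whole-number counts of read pairs on exons were deposited by the authors, from HISAT2 alignments and featureCounts. The methods of the study give versions of HISAT2 and featureCounts, which are not repeated here, and none of kallisto or tximport. Depth was 11107421 to 39739950 estimated counts per L2C library.

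Estimated counts were rounded, filtered by filterByExpr (21950 of 55471 genes kept), scaled by TMM and fitted over all 18 SLIM-seq libraries with 1 coefficient per stage and kind in edgeR 4.0.16 (R 4.3.3) by quasi-likelihood (glmQLFit and glmQLFTest), and P values were adjusted by Benjamini-Hochberg over all genes tested. Gene types and features were taken from GENCODE M21 on GRCm38, and 21857 of the genes tested matched. Log2 ratios of single IPs to the inputs used a pseudocount of 0.5 CPM. Offsets for GC content were natural splines (5 degrees of freedom) fitted per library. Alternatives were DESeq2 1.42.0, other scalings, no filter, offsets, a replicate block, smaller fits and leaving out each L2C library. The study took inputs from the same batches of RNA as the IPs, but which libraries share a batch is not given. Deviations of IP and input of the same number had r = -0.24, -0.23 and -0.19 at L2C over 8592 genes. They had -0.14, -0.20 and 0.29 at MII and 0.22, -0.45 and -0.05 at L1C. These r values cannot decide whether libraries share a batch, since they rest on deviations from means of 3 libraries. Numbers were not taken to pair libraries in the main fit. On simulated counts with 200 changed genes in the L2C comparison (21489 genes), edgeR found 104, 0 of them in the wrong direction, with 6 false calls, and DESeq2 found 117 with 22 false calls. The simulation gave no other gene a difference between IP and input, and its libraries did not differ by GC content. Its false calls therefore do not measure those in the real libraries.

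Genes were named by rule: the 10 mRNAs of smallest P value in either direction with a log2 beyond 1, non-overlapping groups, a mean of at least 10 counts and at most 50% of the span covered by another gene, leading ncRNAs by the same rule, leading members of each of 38 lists, and genes the study names. *Foxl2*, *Prm1* and *Tnp1* were named after their values were seen. The libraries and the lists were chosen with earlier results of these data known. The Ythdc1 knockdown libraries were not used here, and 1 list is not reported here. Summaries were made in pandas 2.3.3, scipy 1.17.1 and numpy 2.4.6 under Python 3.11.15, and figures in matplotlib 3.10.9.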

Additional observations from a re-analysis of the deposited data

Results flagged for a closer look

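The log2 IP/input at L2C differed from that at L1C or MII, by the interaction of stage and IP in edgeR, for many of the genes named in the report. Both comparisons share the L2C libraries, and each value below is the log2 IP/input at L2C minus that at the other stage. For genes above both stages, the difference from L1C and then from MII was *Alkbh5* 0.68 and 0.66, *Cdr2* 0.86 and 1.17, *Fto* 0.90 and 0.99, *Herpud2* 0.87 and 0.70, *Jak2* 1.82 and 1.26, *Lars2* 1.55 and 1.86 and *Rac1* 1.18 and 0.79. It was also positive against both for *Slc30a1* 1.80 and 1.75, *Smurf2* 0.61 and 0.66, *Socs5* 0.86 and 0.93, *Tmem65* 1.80 and 1.38 and *Ythdf3* 0.71 and 1.16. Among these *Fto* and *Alkbh5* were not called at L2C itself, and *Ythdf3* was called lower at each stage, least so at L2C. For genes below both stages, it was *Aars* -1.13 and -1.53, *Akap8* -0.49 and -1.79, *Chtf18* -1.73 and -1.16, *Dnmt1* -2.09 and -3.65, *Eif4h* -1.35 and -1.26, *Gm7104* -2.49 and -2.27, *Rab3b* -0.50 and -1.29, *Rrp12* -0.77 and -2.74, *Socs3* -2.29 and -1.48, *Tars* -0.81 and -0.60 and *Usp5* -0.61 and -1.61. *Dnmt1* was lower in the IP at L2C and had positive log2 values at L1C and MII (0.29 and 1.85). Against L1C alone, genes above were *Camk1d* 1.61, *Plekha3* 1.06 and *Snhg14* 1.37 and genes below *Pes1* -0.69, *Rbm15* -0.77, *Sh3bp2* -1.26 and *Stat2* -0.61. Against MII alone, genes above were *Dcp1a* 1.70, *Fbxo42* 1.11, *Gm7353* 0.68, *Kdm1b* 0.55, *Psmd3* 0.63, *Slain1* 0.90, *Sprtn* 0.71, *Tcstv3* 0.91 and *Tpt1-ps3* 0.57 and genes below *Mettl14* -0.86, *Srsf4* -0.80, *Vcpip1* -0.69, *Ybx3* -1.41 and *Ythdc2* -1.24. Of these *Dcp1a*, *Fbxo42*, *Gm7353*, *Kdm1b*, *Psmd3* and *Sprtn* were lower in the IP at both stages and less so at L2C, and *Ybx3* was higher at both and less so at L2C. The edgeR BH-adjusted p values ran from 3.4e-10 to 0.045. Causes were not tested.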

How the results depend on the processing

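With scaling to library size alone 5334 mRNAs were higher at L2C in place of 3473. A log2 change beyond 1 left 1424 higher and 2134 lower, 469 and 497 higher and lower than at L1C, and 1185 and 1089 than at MII. Among genes with little overlap 298 ncRNAs were lower. A threshold on size and the removal of overlapping genes lower counts by construction. Against L1C, DESeq2 gave 1522 lower, and a fit of the 12 libraries of both stages gave 475 higher and 1495 lower. With the replicate number as a block (replicate block) 538 were higher and 497 lower than at L1C, and at L2C itself 3051 and 4016, although the numbers were not taken to pair the libraries. Leaving out 1 L2C library gave 603 to 1023 higher and 523 to 868 lower than at L1C, with the fewest without IP 3, and 2590 to 3233 higher and 3752 to 4200 lower in IP than input. The cause of the other changes was not tested.

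Medians of classes that lay beyond the spread of the IPs and changed sign with library size alone were those of nucleoporins (0.025), kinesins (0.024), collagens, laminins and integrins (0.087), chaperones (0.13) and the Zscan4 cluster (0.20). With GC offsets they were those of deadenylation, decapping and decay (-0.15), collagens, laminins and integrins (0.20) and oocyte transcripts (-0.053). With GC and intron offsets they were those of TEC (-0.037), glycolysis (0.027), deadenylation, decapping and decay (-0.099), cadherins and protocadherins (-0.12), collagens, laminins and integrins (0.27) and oocyte transcripts (-0.045). Oocyte transcripts were also at -0.015 with no filter and -0.0029 in a fit of the 6 L2C libraries, and from -0.052 to 0.071 with 1 library left out. Medians within that spread changed sign with library size alone for zinc finger proteins (0.15), chromatin modifiers (0.20), solute carriers (0.17), Rab GTPases (0.22) and pluripotency factors (0.22), with both offsets for solute carriers, Rab GTPases and ubiquitin-specific peptidases, and with GC and intron offsets for pluripotency factors. Without IP 2 that of cytosolic ribosomal proteins was -0.0074, and those of ubiquitin-specific peptidases, Rab GTPases and pluripotency factors also changed sign without single libraries. The Zscan4 cluster ran from -0.28 to 0.068 with 1 library left out, and was 0.022 without input 1.

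The 5 named genes that changed sign were not called in the first place. With GC offsets and with GC and intron offsets, *Fto* was -0.075 and -0.24, *Mettl14* -0.28 and -0.18, and *Zscan4f* -0.15 and -0.18. With library size alone *Mettl16* was 0.18 and *Rab3b* 0.13. With 1 library left out, *Fto* ran from -0.057 to 0.27, *Mettl14* from -0.018 to 0.24, *Mettl16* from -0.16 to 0.010 and *Zscan4f* from -0.034 to 0.23. Of the 83 named genes, 81 to 83 kept their direction and side of the threshold in each fit other than those with offsets, where 76 did. The replicate block changed the call of none of these 83 genes.

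IP 2 had 11107421 estimated counts, the fewest of the L2C libraries, which limits the precision for weakly expressed genes. With 3 libraries in each group, 2 of the L2C inputs had rank correlations with GC content about as large in size as those of the IPs, over a smaller range of medians.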
